A study of Mus musculus with 12 samples.

Results

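The 45 genes described here serve DNA replication and mitosis. They were taken by name as a fixed list, not ranked by their values, though earlier results of these data were known when it was chosen. They comprise 24 S phase genes and 21 mitotic genes. A probe named for the gene was found for 43 of them, and 38 had a probe detected above background on at least 3 of 12 arrays, 22 of the S phase genes and 16 of the mitotic genes, out of 10724 genes tested on the array. Where several probes of a gene passed, the brightest stood for it.

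The arrays came from mammary epithelial cell (MEC) 3D cultures, in which primary cells of pregnant mice are seeded on Matrigel, a basement membrane gel, and form hollow clusters called acini. Blimp-1 cKO cultures came from Prdm1 BEH/CA;ROSA26:CreERT2 females, which carry the BEH and CA alleles of Prdm1, the gene of the transcriptional repressor Blimp-1, and a Cre recombinase from the ubiquitously active ROSA26 locus that tamoxifen switches on. Wild type cultures came from C57BL/6 females, which are not described as carrying Cre. Cultures of both genotypes received 4-hydroxytamoxifen on D0 and were harvested on Day 4 (D4) or Day 3 (D3), with 3 arrays for cKO D4, cKO D3, wild type D4 and wild type D3. A difference between the genotypes can thus reflect the Prdm1 alleles, Cre activity or the mouse line, which cannot be told apart in this design. The paper describes the cultures of each genotype as independent, and whether they were cells of different mice is not stated. The p-values refer to the spread between these samples, which may be technical where mice were shared.

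Before a cell divides, the MCM helicase is loaded onto replication origins, switched on at the start of S phase, and followed by polymerases that use a sliding clamp and freshly made deoxynucleotides. Cyclin-dependent kinase 1, the Aurora and Polo kinases, the spindle checkpoint and the anaphase-promoting complex then carry the duplicated chromosomes through mitosis. Transcription of most of these genes is low in resting cells and rises in cycling cells, the S phase genes through E2F factors and the mitotic genes through the MuvB, B-Myb and FoxM1 proteins. In the mammary gland, epithelium proliferates strongly during pregnancy and leaves the cycle as it differentiates.

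Between 18087 and 18905 of 45281 probes were detected per array, and each array correlated with the others of its group at a mean r of 0.992 to 0.996 on the log2 scale. Of the luminal markers Krt8, Krt18, Krt19, Epcam, Cdh1 and Elf5, 6 of 6 were tested, and 5 of 6 basal and 8 of 8 fibroblast markers were too. None of 4 lymphocyte and none of 4 adipocyte markers had a probe detected on 3 arrays. The brighter Prdm1 probe was detected on 4 of 6 cKO arrays and on 0 of 6 wild type arrays, with log2 intensities of 5.90 to 6.99 in cKO and 5.33 to 6.04 in wild type. Since no source used here places this probe inside or outside the deleted part of the gene, it does not check the genotype labels, on which the directions between genotypes rest.

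Neither Mki67, a common proliferation marker, nor Ccnb1, the cyclin B1 gene, has a probe under its name. Bub1, Ccnb2, Kif20a and Pola1 had probes that were detected on no array, and the Prim1 probe was detected on 1 array, a wild type D3 array. Just inside the limit, the probe of Chek1 was detected on 6 arrays, that of Ccna2 on 8 and that of Ttk on 9. That of Ube2c was detected on 11, and those of the other 34 genes on 12. Ccna2 and Chek1 had the widest standard errors of the 38.

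The replication and mitotic genes were lower at D4 than at D3 in both genotypes. The log2 fold change of D4 over D3 was negative for 38 of 38 genes in cKO cultures, between -1.08 and -0.30, and for 38 of 38 in wild type cultures, between -1.13 and -0.40. Its median was -0.58 in cKO and -0.72 in wild type, beside a median over all genes tested of -0.01 in cKO and -0.02 in wild type. A gene was called when its limma p, adjusted by Benjamini-Hochberg over all 19972 probes tested, was at most 0.05 and its fold at least 1.5. In cKO, 14 of 38 were called lower and 0 higher, beside 1.61% of all genes called lower and 2.53% called higher. In wild type, 23 of 38 were called lower and 0 higher, beside 4.89% of all genes called lower and 7.09% called higher. On the adjusted p alone, 24 passed in cKO and 32 in wild type, for which no share over all genes is given here.

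The S phase genes had a median log2 fold change of -0.67 in cKO, where 10 of 22 were called lower, and of -0.72 in wild type, where 15 of 22 were. The mitotic genes had a median of -0.56 in cKO, with 4 of 16 called lower, and of -0.73 in wild type, with 8 of 16. The D4 arrays lay wholly below the D3 arrays for 33 of 38 genes in cKO, beside 14.8% of all genes, and for 37 of 38 in wild type, beside 21.4% of all genes. In cultures of mixed cells, fewer cycling cells and less of each RNA per cell cannot be told apart in these values.

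The cKO count depended on single arrays. It was 5, 8 or 9 without cKO D3 replicate 1, 2 or 3, 22, 5 or 6 without cKO D4 replicate 1, 2 or 3, and 9 without wild type D3 replicate 3. The 38 genes stayed below 0 in both genotypes in each of these fits, while the wild type count stayed between 18 and 27 without any 1 of the 12 arrays. With only the 6 cKO arrays in the fit, 2 genes were called in cKO. The 8 fibroblast markers had a median log2 fold change of 0.52 in cKO and 0.34 in wild type, and Pdgfra was called higher in wild type (1.17, adjusted p = 0.0438). Their summed intensity was 6103 to 7648 on cKO D4 arrays and 3827 to 6219 on cKO D3 arrays. It was 7774, 3701 and 3239 on wild type D4 replicates 1, 2 and 3, and 3241 to 3449 on wild type D3 arrays. Replicate 1 of wild type D4 was also the lowest array of its group for the 38 genes. The part of fibroblasts in the fall was not tested. The 5 endothelial markers had medians of -0.09 in cKO and -0.41 in wild type, with Emcn called lower in wild type (-0.73, adjusted p = 0.0317), and summed intensities of 1474 to 1930 on cKO D4 arrays, 2137 to 2325 on cKO D3 arrays, 1149 to 1968 on wild type D4 arrays and 2003 to 2229 on wild type D3 arrays. Of 6 myeloid markers 2 were tested, and Lyz2 was called lower at D4 in cKO (-0.80, adjusted p = 0.0463). The part of these cells in the day change was not tested. Luminal markers had medians of -0.03 in cKO and -0.01 in wild type, with Elf5 called higher at D4 in wild type (0.80, adjusted p = 0.00486), and basal markers had medians of 0.07 in cKO and -0.18 in wild type, with Trp63 called higher in wild type (0.76, adjusted p = 0.0423). No source used here says which BeadChip held each D3 array, and its part in the day change was not tested.

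**Figure D1:**
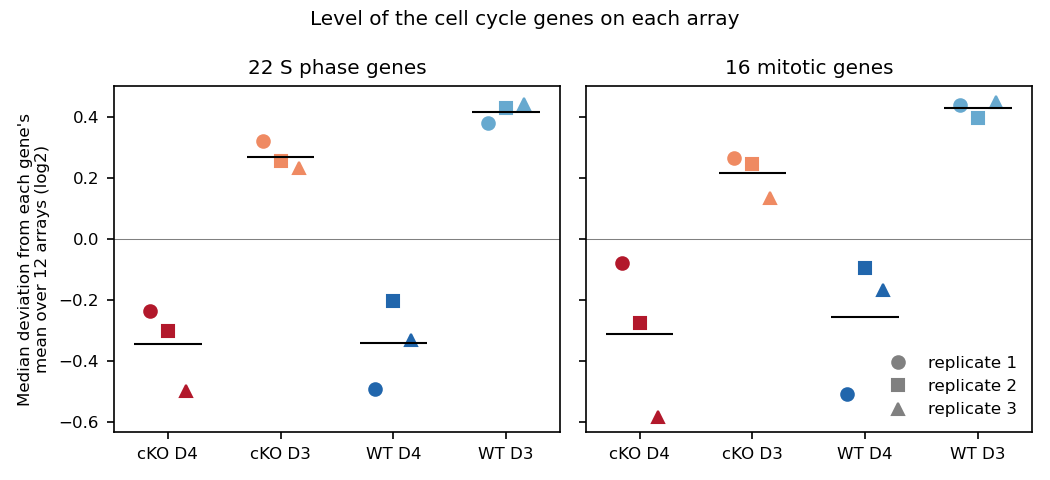
Median over genes of the deviation of each array from the gene's mean over 12 arrays (log2), for 22 S phase genes (left) and 16 mitotic genes (right). Points are arrays, shapes replicate numbers and lines group means, with all D4 arrays below 0 and all D3 arrays above it, and the 3 D4 arrays of each genotype spread more widely than its D3 arrays.

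Array by array, the median deviation of the 38 genes from their own means was -0.20, -0.30 and -0.56 on the cKO D4 arrays, against 0.31, 0.25 and 0.20 on the cKO D3 arrays. It was -0.51, -0.14 and -0.24 on the wild type D4 arrays, against 0.40, 0.41 and 0.44 on the wild type D3 arrays. The days did not overlap in either genotype. As the plot of array medians shows, replicate 3 of cKO D4 and replicate 1 of wild type D4 were the lowest arrays for both the S phase and the mitotic genes.

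**Figure D2:**
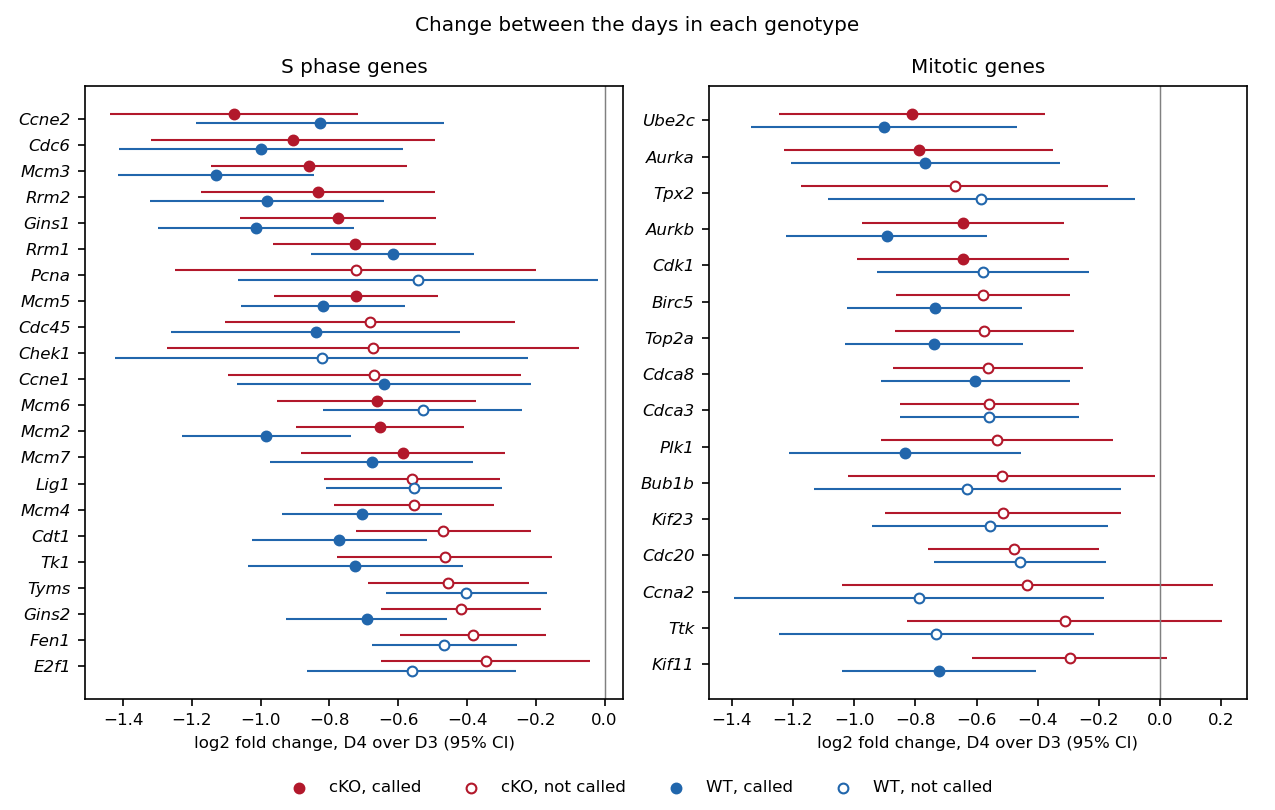
Log2 fold change of D4 over D3 with its 95% confidence interval (limma) for each S phase gene (left) and mitotic gene (right) in cKO (red) and wild type (WT, blue) cultures, with filled points past the adjusted p and the fold of 1.5. All points lie below 0, and the intervals of cKO and wild type overlap for every gene drawn.

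Since the tested genes were lower together at D4, promoters of the listed genes were searched for words that E2F factors and mitotic regulators are known to bind. RefSeq windows (GRCm38.p6) of 250 bases before to 50 bases after a start of the gene were at hand for 37 of 45 genes. These were 20 S phase and 17 mitotic genes, and the first listed window of each was used. Only 31 of the 37 were tested on the arrays. Prim1, Pola1, Ccnb1, Ccnb2, Bub1 and Mki67 had no measured day change, though their windows are counted below. Prim1 and Pola1 were among the S phase windows with an E2F-like word. For Cdc6, E2f1, Aurka and Cdca3 this window lay wholly inside the gene. Cdc6, on the plus strand, begins at 98907709, before its window. The sequence at the outermost start of these genes was thus not searched. An E2F-like word, which was TTGGCGC or the variant TTGGCGG, else the word TTCCCGC or the variant TTCGCGC, read on both strands, was present in 10 of 20 S phase windows (50%), in 3 of 17 mitotic windows (17.6%) and in 10.4% of the windows of all 27025 genes. A cell cycle homology region word, TTTGAA or the variant TTCGAA, was present in 4 of 20 S phase windows (20%), in 15 of 17 mitotic windows (88.2%) and in 19.4% of all windows. CCAAT, the word bound by NF-Y, was present in 11 of 20 S phase windows (55%), 16 of 17 mitotic windows (94.1%) and 37.9% of all windows. A CCAAT and a homology region word occurred together in 3 of 20 S phase windows (15%), 15 of 17 mitotic windows (88.2%) and 7.7% of all windows. These matches describe letters in a window and were not tested as binding sites.

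The windows of the 3 S phase and the 3 mitotic genes with the largest mean fall over both genotypes, among those with a window, are shown because they let the words of each class be seen in place. They lie at chr1:20820263-20820562 (minus strand) for Mcm3, chr11:98907901-98908200 (plus strand) for Cdc6, chr12:24708004-24708303 (plus strand) for Rrm2, chr2:164769679-164769978 (plus strand) for Ube2c, chr2:172370521-172370820 (minus strand) for Aurka and chr7:122159185-122159484 (plus strand) for Plk1. Capitals mark every match to the words above, on either strand.
Mcm3: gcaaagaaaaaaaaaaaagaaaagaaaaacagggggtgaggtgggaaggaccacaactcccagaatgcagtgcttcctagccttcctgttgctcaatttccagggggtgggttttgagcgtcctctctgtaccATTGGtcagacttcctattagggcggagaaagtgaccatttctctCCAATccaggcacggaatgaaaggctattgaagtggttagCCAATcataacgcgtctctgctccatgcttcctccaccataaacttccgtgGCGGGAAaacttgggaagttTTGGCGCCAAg
Cdc6: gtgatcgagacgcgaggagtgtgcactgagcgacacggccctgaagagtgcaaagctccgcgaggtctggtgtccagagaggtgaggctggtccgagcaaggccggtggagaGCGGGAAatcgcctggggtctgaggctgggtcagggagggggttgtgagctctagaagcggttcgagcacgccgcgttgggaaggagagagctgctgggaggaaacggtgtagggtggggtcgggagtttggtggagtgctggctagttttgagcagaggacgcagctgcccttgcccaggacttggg
Rrm2: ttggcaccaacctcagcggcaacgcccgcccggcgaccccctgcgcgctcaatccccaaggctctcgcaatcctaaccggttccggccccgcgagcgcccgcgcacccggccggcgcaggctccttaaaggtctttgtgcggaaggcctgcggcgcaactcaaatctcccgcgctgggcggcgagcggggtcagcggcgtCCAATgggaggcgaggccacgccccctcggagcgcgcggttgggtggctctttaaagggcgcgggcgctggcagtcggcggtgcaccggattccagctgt
Ube2c: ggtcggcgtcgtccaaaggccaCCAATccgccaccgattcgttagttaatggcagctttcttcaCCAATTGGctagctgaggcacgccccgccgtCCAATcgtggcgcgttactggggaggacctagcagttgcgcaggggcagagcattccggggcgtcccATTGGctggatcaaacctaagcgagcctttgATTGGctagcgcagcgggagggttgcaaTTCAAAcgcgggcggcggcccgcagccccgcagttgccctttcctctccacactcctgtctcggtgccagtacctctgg
Aurka: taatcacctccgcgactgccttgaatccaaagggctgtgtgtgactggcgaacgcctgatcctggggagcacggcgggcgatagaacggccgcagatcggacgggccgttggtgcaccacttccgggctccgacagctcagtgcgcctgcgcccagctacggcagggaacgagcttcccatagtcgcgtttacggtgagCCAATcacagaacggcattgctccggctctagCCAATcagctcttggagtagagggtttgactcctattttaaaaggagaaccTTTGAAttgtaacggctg
Plk1: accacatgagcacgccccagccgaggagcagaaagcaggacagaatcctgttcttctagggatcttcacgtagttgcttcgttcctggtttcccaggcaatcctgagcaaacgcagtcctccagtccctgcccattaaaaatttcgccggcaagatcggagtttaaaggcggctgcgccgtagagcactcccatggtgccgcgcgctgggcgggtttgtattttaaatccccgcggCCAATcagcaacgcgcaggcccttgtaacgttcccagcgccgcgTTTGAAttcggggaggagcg

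Mcm3 carried 3 E2F-like words and 3 CCAAT words, and Cdc6 carried 1 E2F-like word and no CCAAT. Rrm2 had 1 CCAAT and none of the other words. Ube2c carried 1 homology region word with 6 CCAAT words upstream of it, Aurka 1 with 2 CCAAT words and Plk1 1 with 1 CCAAT word. The window of Cdk1 held all 3 kinds, with 3 E2F-like, 2 homology region and 3 CCAAT words.

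Among the origin licensing genes, Mcm2 to Mcm7 encode the ring of the replicative helicase, and Cdc6 and Cdt1 load it onto DNA. Of these 8 genes, 8 passed the adjusted p in each genotype, with 6 called lower in cKO and 7 in wild type, and their medians were -0.66 in cKO and -0.79 in wild type. Mcm3 had log2 intensities of 9.52, 9.77 and 9.53 on the cKO D4 arrays, against 10.43, 10.48 and 10.49 on the cKO D3 arrays. In wild type the values were 9.34, 9.86 and 9.63 on the wild type D4 arrays, against 10.71, 10.72 and 10.81 on the wild type D3 arrays. The days were separated by more than the whole spread of either day in both genotypes. The log2 fold change was -0.86 ± 0.13 (SE, adjusted p = 0.00826) in cKO and -1.13 ± 0.13 (SE, adjusted p = 0.000555) in wild type, which is 1.81-fold and 2.19-fold lower at D4. Mcm3 was the only gene whose cKO call held in all alternative limma fits.

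Mcm2, often stained to mark cells that can divide, had log2 intensities of 10.71, 10.57 and 10.75 on the cKO D4 arrays, against 11.49, 11.18 and 11.32 on the cKO D3 arrays. In wild type it had 10.61, 10.80 and 10.58 on the wild type D4 arrays, against 11.63, 11.57 and 11.74 on the wild type D3 arrays. The D4 levels of the genotypes overlapped, while the wild type D3 arrays lay above all others. Its log2 fold change was -0.65 ± 0.11 (SE, adjusted p = 0.0122) in cKO and -0.98 ± 0.11 (SE, adjusted p = 0.000526) in wild type. The difference between these changes was 0.33, with a 95% interval of -0.02 to 0.68 (adjusted p = 0.681).

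Cdc6 had log2 intensities of 8.58, 8.57 and 7.98 on the cKO D4 arrays, against 9.29, 9.35 and 9.21 on the cKO D3 arrays. The wild type values were 8.10, 8.64 and 8.54 on the wild type D4 arrays, against 9.26, 9.66 and 9.36 on the wild type D3 arrays. Replicate 3 of cKO D4 and replicate 1 of wild type D4 were the lowest arrays of their groups, and no D4 array reached a D3 array. D4 over D3 gave a log2 fold change of -0.91 ± 0.19 (SE, adjusted p = 0.0234) in cKO and -1.0 ± 0.19 (SE, adjusted p = 0.00480) in wild type. Among the other helicase genes, Mcm5 had -0.72 in cKO and -0.82 in wild type, and Mcm7 had -0.59 and -0.68 in the same order, all called. Mcm6 was called in cKO (-0.66, adjusted p = 0.0199) and stayed under the fold minimum in wild type (-0.53, adjusted p = 0.0177). Mcm4 and Cdt1 were called in wild type (-0.71 and -0.77) and passed only the adjusted p in cKO (-0.55 and -0.47).

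At the replication fork, 6 of 8 genes could be tested. Gins1, a subunit of the GINS complex that joins Cdc45 and the MCM ring in the active helicase, had log2 intensities of 9.70, 9.41 and 9.45 on the cKO D4 arrays, against 10.43, 10.08 and 10.37 on the cKO D3 arrays. The wild type values were 9.21, 9.53 and 9.44 on the wild type D4 arrays, against 10.36, 10.39 and 10.48 on the wild type D3 arrays. All D4 arrays lay below all D3 arrays, whichever the genotype. Its log2 fold change was -0.78 ± 0.13 (SE, adjusted p = 0.0111) in cKO and -1.01 ± 0.13 (SE, adjusted p = 0.000883) in wild type. Its partner Gins2 was called in wild type (-0.69) and had -0.42 in cKO (adjusted p = 0.0454), under the fold minimum.

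Cdc45, which travels with the fork, had log2 intensities of 10.21, 10.36 and 9.70 on the cKO D4 arrays, against 10.79, 10.88 and 10.64 on the cKO D3 arrays. Wild type cultures had 9.49, 10.16 and 9.91 on the wild type D4 arrays, against 10.78, 10.54 and 10.76 on the wild type D3 arrays. Replicate 3 of cKO D4 and replicate 1 of wild type D4 again stood lowest, and the days did not overlap within either genotype. Between the days the log2 fold change was -0.68 ± 0.19 (SE, adjusted p = 0.0619) in cKO, which missed the threshold, and -0.84 ± 0.19 (SE, adjusted p = 0.0117) in wild type.

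Pcna, the sliding clamp, had log2 intensities of 8.12, 7.99 and 8.34 on the cKO D4 arrays, against 8.81, 8.93 and 8.88 on the cKO D3 arrays. In wild type the values were 7.61, 8.31 and 8.86 on the wild type D4 arrays, against 8.86, 8.86 and 8.69 on the wild type D3 arrays. The 3 cKO D4 arrays lay together below D3, whereas wild type D4 spread most widely and its replicate 3 sat at the D3 level. This gave a log2 fold change of -0.72 ± 0.24 (SE, adjusted p = 0.0974) in cKO and -0.54 ± 0.24 (SE, adjusted p = 0.144) in wild type, so neither was called. Fen1 and Lig1, which trim and join the fragments of the lagging strand, passed the adjusted p under the fold minimum in both genotypes, with -0.38 in cKO and -0.47 in wild type for Fen1 and -0.56 and -0.56 for Lig1.

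Of the 4 genes of nucleotide supply, 2 were called lower in cKO and 3 in wild type. Rrm1, the large subunit of ribonucleotide reductase, had log2 intensities of 11.84, 11.90 and 11.69 on the cKO D4 arrays, against 12.66, 12.58 and 12.37 on the cKO D3 arrays. The wild type values were 12.06, 12.18 and 12.22 on the wild type D4 arrays, against 12.84, 12.66 and 12.80 on the wild type D3 arrays. The 3 cKO D4 arrays were the lowest of all 12, and all D4 arrays lay below all D3 arrays. Between the days the log2 fold change was -0.73 ± 0.11 (SE, adjusted p = 0.00807) in cKO and -0.62 ± 0.11 (SE, adjusted p = 0.00336) in wild type. Rrm2, the small subunit, whose level is known to peak in S phase, had -0.83 in cKO (adjusted p = 0.0162) and -0.98 in wild type (adjusted p = 0.00205). Tk1, which salvages thymidine, was called in wild type (-0.73) and had -0.46 in cKO (adjusted p = 0.0794). Tyms, which makes thymidylate anew, passed the adjusted p under the fold minimum in both genotypes, with -0.45 in cKO and -0.40 in wild type.

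The largest fall of any listed gene in cKO was that of Ccne2, which encodes cyclin E2, a partner of Cdk2 at the entry into S phase. Its log2 intensities were 8.69, 8.54 and 8.18 on the cKO D4 arrays, against 9.79, 9.59 and 9.27 on the cKO D3 arrays. They were 8.45, 8.72 and 8.83 on the wild type D4 arrays, against 9.53, 9.47 and 9.49 on the wild type D3 arrays. The D3 arrays of wild type lay close together, and no D4 array overlapped them. The log2 fold change was -1.08 ± 0.16 (SE, adjusted p = 0.00826) in cKO, 2.11-fold, and -0.83 ± 0.16 (SE, adjusted p = 0.00606) in wild type, 1.78-fold.

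Ccne1, the related cyclin E1 gene, had log2 intensities of 8.35, 8.5 and 7.83 on the cKO D4 arrays, against 9.11, 8.99 and 8.58 on the cKO D3 arrays. Wild type cultures had 7.91, 8.03 and 8.12 on the wild type D4 arrays, against 8.46, 8.60 and 8.93 on the wild type D3 arrays. The days came close to each other in cKO without overlapping. D4 over D3 gave a log2 fold change of -0.67 ± 0.19 (SE, adjusted p = 0.0685) in cKO and -0.64 ± 0.19 (SE, adjusted p = 0.0406) in wild type, and only the wild type change was called.

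E2f1, the transcription factor that activates many of these genes, had log2 intensities of 11.30, 11.34 and 11.09 on the cKO D4 arrays, against 11.82, 11.48 and 11.46 on the cKO D3 arrays. Wild type cultures had 11.05, 11.47 and 11.39 on the wild type D4 arrays, against 11.84, 11.93 and 11.83 on the wild type D3 arrays. Replicate 1 of cKO D3 stood close to the wild type D3 arrays and the other cKO D3 arrays stood nearer to D4. D4 over D3 gave a log2 fold change of -0.35 ± 0.14 (SE, adjusted p = 0.163) in cKO and -0.56 ± 0.14 (SE, adjusted p = 0.0171) in wild type, and the wild type change lay under the fold minimum. Chek1, a checkpoint kinase with a log2 fold change of -0.67 ± 0.27 (SE, adjusted p = 0.167) in cKO, was detected on no wild type D4 array. Against the lowest detected signal there it was at least 1.49-fold lower at D4 than at D3 in wild type. The limma adjusted p of 0.0576 in wild type was for the measured signals and not for this bound. With Chek1 at this bound, the wild type medians became -0.71 over 38 genes and -0.70 over the S phase genes.

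Among the mitotic genes, Cdk1, the kinase that drives entry into mitosis, had log2 intensities of 12.71, 12.40 and 12.09 on the cKO D4 arrays, against 13.01, 13.12 and 13.004 on the cKO D3 arrays. The wild type values were 12.24, 12.60 and 12.68 on the wild type D4 arrays, against 13.10, 13.02 and 13.14 on the wild type D3 arrays. The D3 arrays of both genotypes stood together and every D4 array lay below them. Its log2 fold change was -0.64 ± 0.16 (SE, adjusted p = 0.0405) in cKO and -0.58 ± 0.16 (SE, adjusted p = 0.0262) in wild type, where it stayed just under the fold minimum. With the replicate number as a block shared by the genotypes, the cKO change had an adjusted p of 0.0553. With separate blocks in each genotype, also fitted over all arrays, it had 0.0456.

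Ccna2, the cyclin A2 gene, whose product serves both S phase and mitosis, was dim, with log2 intensities of 5.59, 6.52 and 5.70 on the cKO D4 arrays, against 6.15, 6.72 and 6.24 on the cKO D3 arrays. Wild type arrays gave 5.87, 6.46 and 6.62 on the wild type D4 arrays, against 6.84, 7.05 and 7.43 on the wild type D3 arrays. The days overlapped in cKO and not in wild type. This gave a log2 fold change of -0.43 ± 0.28 (SE, adjusted p = 0.384) in cKO and -0.79 ± 0.28 (SE, adjusted p = 0.0692) in wild type, and neither passed.

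The mitotic kinases were called more often in wild type, 3 of 5, than in cKO, 2 of 5, although no difference between the genotypes passed a test. Aurka, the Aurora A kinase of the spindle poles, had log2 intensities of 11.72, 11.50 and 10.88 on the cKO D4 arrays, against 12.20, 12.34 and 11.93 on the cKO D3 arrays. In wild type it had 11.08, 11.40 and 11.44 on the wild type D4 arrays, against 12.20, 12.01 and 12.01 on the wild type D3 arrays. The cKO D4 arrays were the most spread group, with replicate 1 nearest to D3 and replicate 3 farthest from it. Between the days the log2 fold change was -0.79 ± 0.20 (SE, adjusted p = 0.0445) in cKO and -0.77 ± 0.20 (SE, adjusted p = 0.0215) in wild type.

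Aurkb, the Aurora B kinase of the chromosomal passenger complex, had log2 intensities of 10.75, 10.71 and 10.32 on the cKO D4 arrays, against 11.37, 11.22 and 11.12 on the cKO D3 arrays. Wild type cultures had 10.35, 10.87 and 10.60 on the wild type D4 arrays, against 11.52, 11.46 and 11.52 on the wild type D3 arrays. The days were apart in both genotypes, and the 3 wild type D3 arrays lay above all cKO D3 arrays. This gave a log2 fold change of -0.64 ± 0.15 (SE, adjusted p = 0.0350) in cKO and -0.89 ± 0.15 (SE, adjusted p = 0.00275) in wild type.

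Plk1, the Polo-like kinase that acts from mitotic entry to cell division, had log2 intensities of 12.18, 12.08 and 11.67 on the cKO D4 arrays, against 12.56, 12.63 and 12.34 on the cKO D3 arrays. The wild type values were 11.45, 12.08 and 11.84 on the wild type D4 arrays, against 12.57, 12.64 and 12.66 on the wild type D3 arrays. Replicate 1 of wild type D4 was the lowest array, and the days did not overlap in either genotype. D4 over D3 gave a log2 fold change of -0.53 ± 0.17 (SE, adjusted p = 0.0922) in cKO, not called, and -0.83 ± 0.17 (SE, adjusted p = 0.00742) in wild type.

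Bub1b, which encodes the checkpoint protein BubR1, had log2 intensities of 11.81, 11.13 and 10.93 on the cKO D4 arrays, against 12.11, 11.58 and 11.74 on the cKO D3 arrays. Wild type arrays gave 11.26, 11.61 and 11.68 on the wild type D4 arrays, against 12.36, 11.90 and 12.17 on the wild type D3 arrays. Replicate 1 of cKO D4 stood at the level of the cKO D3 arrays, so the days overlapped there. Between the days the log2 fold change was -0.52 ± 0.23 (SE, adjusted p = 0.202) in cKO and -0.63 ± 0.23 (SE, adjusted p = 0.0783) in wild type, neither called. Ttk, the kinase that starts checkpoint signalling, had log2 intensities of 6.80, 6.19 and 6.09 on the cKO D4 arrays, against 6.38, 6.92 and 6.71 on the cKO D3 arrays. Wild type arrays gave 6.06, 6.60 and 6.83 on the wild type D4 arrays, against 7.41, 7.24 and 7.04 on the wild type D3 arrays. Here too the days overlapped in cKO and not in wild type, with log2 fold changes of -0.31 ± 0.23 (SE, adjusted p = 0.473) in cKO and -0.73 ± 0.23 in wild type, where the adjusted p of 0.05005 lay just above the limit.

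Ube2c, the ubiquitin-conjugating enzyme of the anaphase-promoting complex, had the largest fall of the mitotic genes in both genotypes. Its log2 intensities were 6.68, 6.52 and 6.44 on the cKO D4 arrays, against 7.48, 7.23 and 7.36 on the cKO D3 arrays. They were 6.05, 6.91 and 6.86 on the wild type D4 arrays, against 7.66, 7.40 and 7.48 on the wild type D3 arrays. The cKO arrays of each day lay close together, and replicate 1 of wild type D4 was lower than its other replicates. Its change between the days was -0.81 ± 0.20 (SE, adjusted p = 0.0401) in cKO and -0.90 ± 0.20 (SE, adjusted p = 0.00956) in wild type. The cKO call was lost with the replicate number as a block. Its adjusted p was 0.0553 with blocks shared by the genotypes and 0.0577 with separate blocks in each genotype. Cdc20, an activator of the same complex, averaged 12.63 ± 0.26 on cKO D4 arrays, 13.11 ± 0.03 on cKO D3 arrays, 12.63 ± 0.12 on wild type D4 arrays and 13.09 ± 0.08 on wild type D3 arrays (SD, n = 3 each). Its log2 fold change was -0.48 in cKO (adjusted p = 0.0525) and -0.46 in wild type (adjusted p = 0.0288), not called in either. Its further probes 2612206, 2698767 and 2867901 had -0.83, -0.72 and -0.87 in wild type, each past both limits. In cKO they had -0.39, -0.52 and -0.34, none past the adjusted p. Cdca3, a protein that the complex degrades, had -0.56 in cKO and -0.56 in wild type, under the fold minimum in both. Its other probe, 2832219, passed both limits in cKO (-0.85) and in wild type (-0.80).

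Top2a is the topoisomerase that untangles chromosomes, and Birc5 and Cdca8 encode the survivin and borealin subunits of the passenger complex. On their brightest probes all were called lower in wild type and stayed just under the fold minimum in cKO. Top2a averaged 11.22 ± 0.07 on cKO D4 arrays and 11.80 ± 0.11 on cKO D3 arrays, and 11.23 ± 0.26 on wild type D4 arrays and 11.97 ± 0.12 on wild type D3 arrays (SD, n = 3 each). Its log2 fold change was -0.57 ± 0.13 (SE, adjusted p = 0.0343) in cKO and -0.74 ± 0.13 (SE, adjusted p = 0.00375) in wild type. Birc5 had -0.58 in cKO and -0.74 in wild type, and Cdca8 had -0.56 and -0.60 in the same order. For these 3 genes the adjusted p was at most 0.05 in both genotypes.

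Among the spindle genes, Tpx2, which activates Aurora A on microtubules, had log2 intensities of 9.19, 8.61 and 8.05 on the cKO D4 arrays, against 9.26, 9.32 and 9.28 on the cKO D3 arrays. Wild type arrays gave 8.52, 8.96 and 8.91 on the wild type D4 arrays, against 9.49, 9.40 and 9.26 on the wild type D3 arrays. The cKO D4 arrays spread from near the D3 level in replicate 1 to well below it in replicate 3. This gave a log2 fold change of -0.67 ± 0.23 (SE, adjusted p = 0.106) in cKO and -0.58 ± 0.23 (SE, adjusted p = 0.101) in wild type, neither called. Kif11, the kinesin that pushes the spindle poles apart, had log2 intensities of 9.06, 8.84 and 8.62 on the cKO D4 arrays, against 9.23, 9.05 and 9.14 on the cKO D3 arrays. The wild type values were 8.62, 9.01 and 8.99 on the wild type D4 arrays, against 9.72, 9.44 and 9.62 on the wild type D3 arrays. Its days overlapped narrowly in cKO and were apart in wild type, and its log2 fold change was -0.30 ± 0.14 (SE, adjusted p = 0.249) in cKO and -0.72 ± 0.14 (SE, adjusted p = 0.00631) in wild type.

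**Figure D3:**
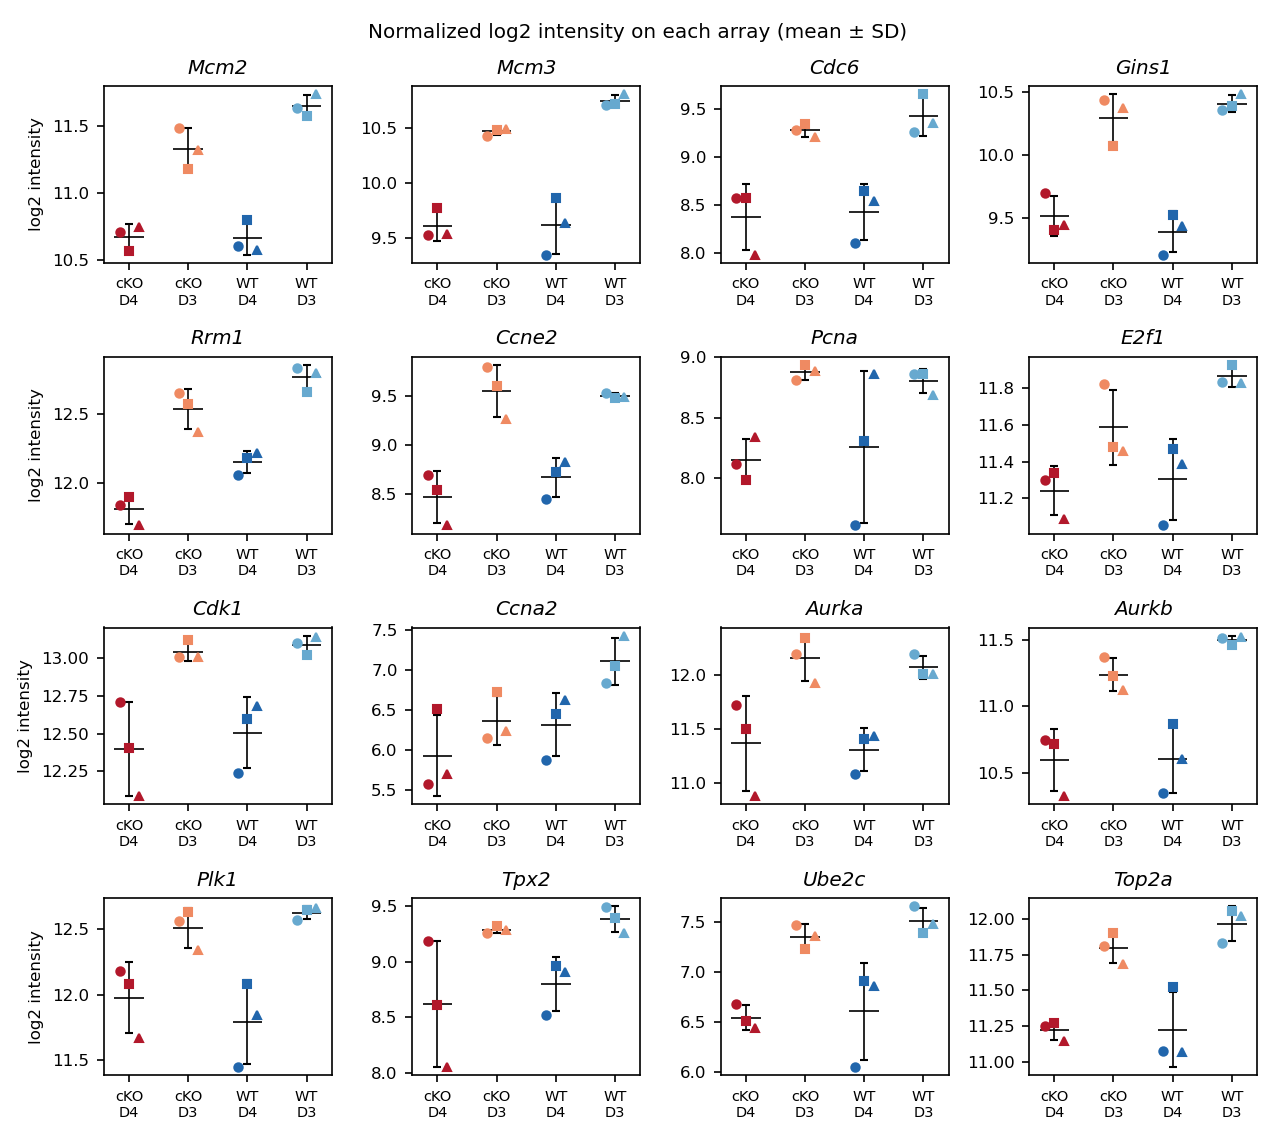
Normalized log2 intensity of 16 genes on each of 12 arrays, with groups from left to right cKO D4, cKO D3, wild type (WT) D4 and WT D3. Points are arrays (circle, square and triangle for replicates 1, 2 and 3) and bars the mean ± SD, and in Mcm3, Gins1, Rrm1 and Ccne2 no D4 array reaches a D3 array, whereas Pcna on wild type D4 arrays and Tpx2 on cKO D4 arrays spread widely.

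Of the 38 genes, 18 had more than 1 tested probe, which gave 31 further probes. The log2 fold change of D4 over D3 was negative for 30 of these 31 in cKO and for 31 of 31 in wild type. The exception in cKO was probe 1250752 of Kif23, a kinesin of the central spindle, with a log2 fold change of 0.48 (adjusted p = 0.175). This probe, named after its values were seen, was higher in cKO than in wild type, by 2.15 at D4 (adjusted p = 0.000138) and 1.41 at D3 (adjusted p = 0.00186). The chosen Kif23 probe and the other 2 had log2 fold changes of cKO over wild type between -0.18 and 0.09. Between the days the chosen one changed by -0.51 in cKO and -0.56 in wild type, without a call in either. Some calls hinged on the probe used. Other probes passed both limits in cKO for Cdca8 (2588362, -0.76), Birc5 (2603699, -0.62), Top2a (1255436, -0.80) and Mcm4 (2752009, -1.12), unlike the chosen ones. Probe 2923463 of Kif23 passed in both genotypes (-0.76 in cKO, -0.72 in wild type), and so did probe 2657356 of Lig1 (-0.74 in cKO, -0.79 in wild type). In wild type alone, probes of Mcm6 (1233857, -0.78), Bub1b (2985969, -0.63) and Chek1 (3009652, -0.87) passed both limits, unlike the chosen ones. The Chek1 probe was detected on 0 wild type D4 arrays. The other way, no further tested probe of Mcm6 or Rrm1 passed both limits in cKO, though the chosen ones did. The same held for Tk1 in wild type.

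The day changes of the genotypes, which share no array, were set side by side. Of the 38 genes, 12 were called lower in both genotypes (9 S phase, 3 mitotic), 2 in cKO alone, 11 in wild type alone and 13 in neither. Those in both were Mcm2, Mcm3, Mcm5, Mcm7, Cdc6, Gins1, Rrm1, Rrm2, Ccne2, Aurka, Aurkb and Ube2c. Over all genes tested, 1.61% were called lower in cKO and 4.89% in wild type, whether in 1 genotype or both. The share of all genes called lower in both is not given here and cannot exceed 1.61%. Across the 38 genes the changes had a Pearson r of 0.53 and a Spearman rho of 0.50, and across all genes tested 0.74 and 0.66. Genes of 1 array are not independent replicates, so these values describe the arrays. The log2 fold change was more negative in wild type for 26 of 38 genes and in cKO for 12.

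**Figure D4:**
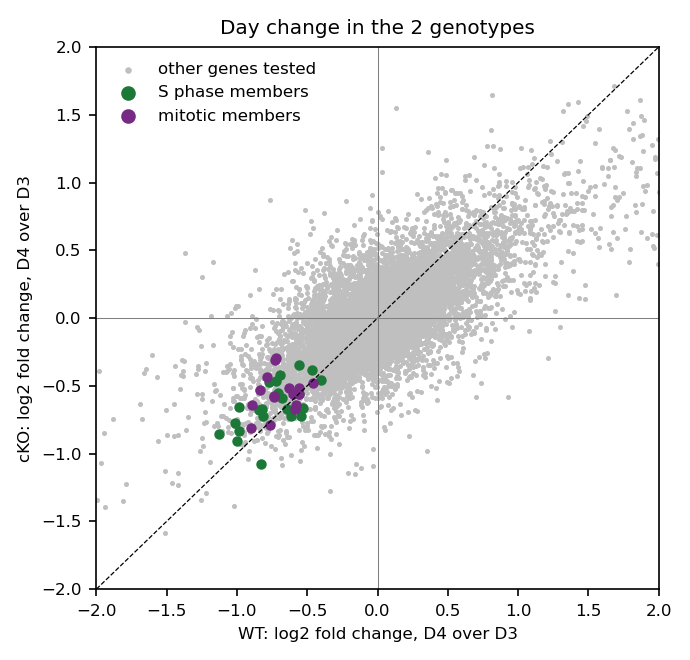
Log2 fold change of D4 over D3 in cKO (vertical) against wild type (WT, horizontal) for all genes tested (grey), the S phase genes (green) and the mitotic genes (purple). The dashed line marks equal change, 56 genes lie beyond the axes at 2 log2 units, and all 38 coloured points fall in the lower left field, 26 of them above the line.

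Whether the change differed between the genotypes was tested as the difference of the day changes, cKO minus wild type. For 0 of 38 genes did it pass on the adjusted p, and 0 of 10724 genes (0%) passed over the whole array in this limma fit, where 793 had an unadjusted p of at most 0.05. None of the 38 had an unadjusted p of at most 0.05, all 38 intervals held 0, and the lowest adjusted p was 0.681. The median difference was 0.12 for the S phase genes and 0.10 for the mitotic genes, and with 1 array left out the mitotic median ran between -0.01 and 0.22, below 0 without cKO D4 replicate 1 or wild type D4 replicate 1. The intervals had a median half-width of 0.44 on the log2 scale, and a difference within them was not detectable at this number of arrays. The largest difference, 0.43 for Kif11, had an interval of -0.02 to 0.87 (adjusted p = 0.683).

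Between the genotypes at D4, 0 of 38 genes were called, beside 4.23% of all genes tested. The median log2 fold change of cKO over wild type was -0.06, with 29 of 38 genes below 0, and 37 of 38 intervals held 0. The exception was Rrm1, whose values on the D4 arrays are given above and did not overlap, with a log2 fold change of -0.34 and an interval of -0.58 to -0.10 (adjusted p = 0.105). Ccna2 (-0.38, interval -0.99 to 0.22) and Bub1b (-0.22, interval -0.72 to 0.28) had the lowest values among the mitotic genes, and Cdc45 (0.24), Ccne1 (0.21) and Plk1 (0.18) were the highest of all. At D4 arrays of the same replicate number shared a BeadChip. Within the BeadChips the median difference over the 38 genes was 0.33, -0.19 and -0.30 for replicates 1, 2 and 3, so its sign was not the same on all 3. In the same order, 4, 31 and 33 of the 38 genes were below 0, beside 5322, 5795 and 5457 of 10724 genes tested.

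At D3 again 0 of 38 genes were called on their brightest probes, beside 2.49% of all genes tested. Of the 38, 5 had an unadjusted p of at most 0.05. The other tested probe of Rrm1, 1258715, named after its values were seen, was lower in cKO past both limits in limma (-0.73, adjusted p = 0.0344). At D4 it had -0.50 (adjusted p = 0.107). Over the 38 genes the median log2 fold change of cKO over wild type was -0.17, with 32 of 38 below 0. Between arrays numbered 1, 2 and 3, 27, 28 and 35 of the 38 were below 0, beside 5715, 5560 and 5586 of 10724 genes tested. All 3 cKO arrays lay below all 3 wild type arrays for 13 of 38 genes, beside 10.3% of all genes tested. Ccna2 had the lowest value (-0.74 ± 0.28 SE, adjusted p = 0.280), followed by Ttk (-0.56 ± 0.23 SE, adjusted p = 0.355) and Kif11 (-0.46 ± 0.14 SE, adjusted p = 0.180), all without overlap between the genotypes. Among the S phase genes Mcm2 (-0.32 ± 0.11 SE, adjusted p = 0.242), E2f1 (-0.28) and Mcm3 (-0.28) were lowest, and Ccne1 had the highest value (0.23). The median half-width of the intervals was 0.31 on each day.

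**Figure D5:**
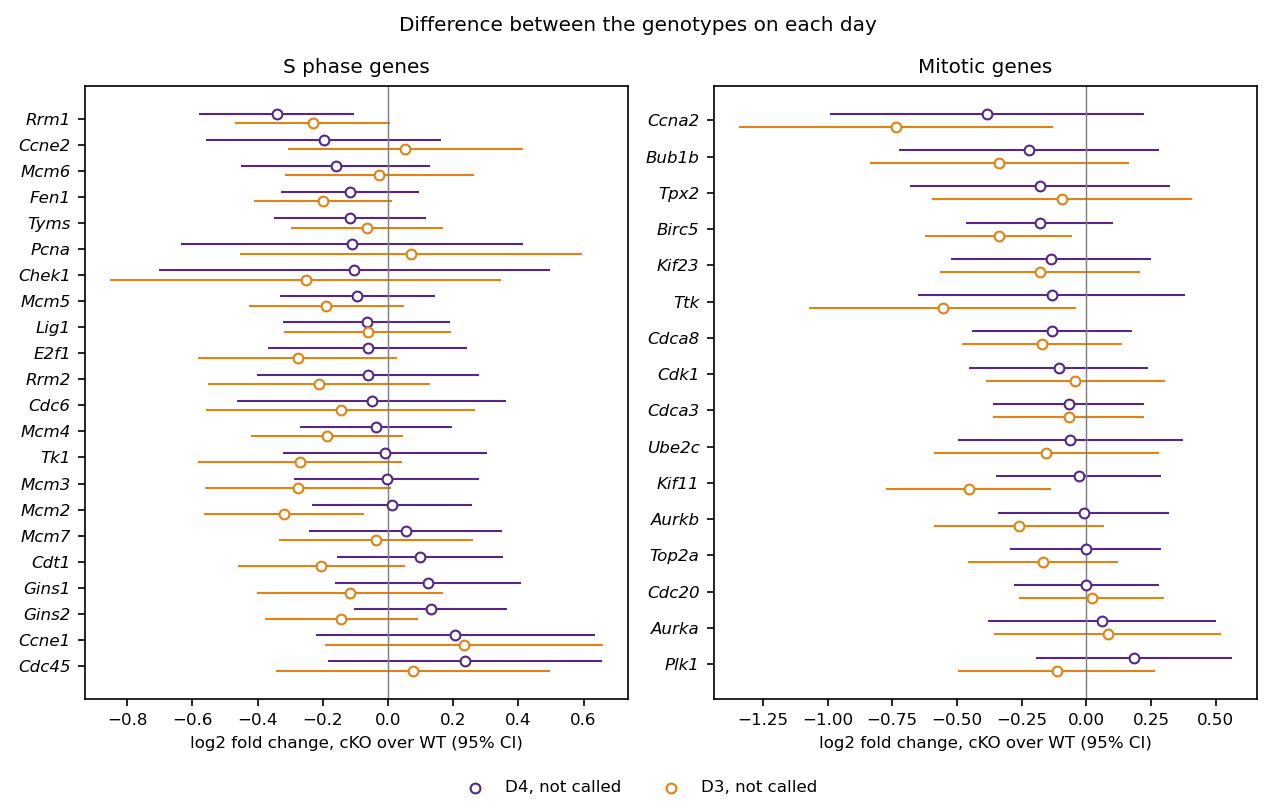
Log2 fold change of cKO over wild type with its 95% confidence interval (limma) for each S phase gene (left) and mitotic gene (right) at D4 (purple) and D3 (orange). Open points mark genes not called, which is all of them on both days, most D3 points lie left of 0, and most D4 intervals lie across it.

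Averaged over both days, 0 of 38 genes were called, beside 4.66% of all genes tested. Rrm1 passed the adjusted p under the fold minimum, with a log2 fold change of -0.29 ± 0.08 (SE, adjusted p = 0.0448). Of the basal epithelial markers, 3 of 5 tested were called higher in cKO over both days, Krt5 at 1.76, Myh11 at 1.43 and Acta2 at 0.62. The summed intensity of the basal markers was 49767 to 57092 on cKO D4 arrays, 48165 to 60368 on cKO D3 arrays, 39725 to 46571 on wild type D4 arrays and 43703 to 47432 on wild type D3 arrays, and its part in the values above was not tested. The 8 fibroblast markers had a median of 0.58 over both days, with 7 of 8 above 0 and Col1a2 called higher in cKO (0.64, adjusted p = 0.0118), and Lyz2 was called lower in cKO at D4 (-1.17, adjusted p = 0.00734) and over both days (-0.75, adjusted p = 0.00916). Their part was not tested either.

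Other genes of these pathways were also lower at D4. Of 33 other replication genes tested, 10 were called lower at D4 in cKO and 13 in wild type, with 0 higher, and their medians were -0.44 in cKO and -0.47 in wild type. Among the called genes, the largest falls in cKO were those of Pole, the leading strand polymerase (-0.98, adjusted p = 0.0227), Timeless (-0.86, adjusted p = 0.0313) and Clspn (-0.84, adjusted p = 0.0111), which protect the fork, and Rpa2 (-0.82, adjusted p = 0.0122), which coats single-stranded DNA. In wild type they were those of Pole (-1.26, adjusted p = 0.00212), Timeless (-0.95, adjusted p = 0.00701) and Clspn (-0.91, adjusted p = 0.00193). Orc1 of the origin recognition complex, also called in wild type, passed the detection filter through its D3 arrays. It was detected on 0 of 3 wild type D4 arrays and was at least 1.63-fold lower there than on the wild type D3 arrays. It was detected on 0 of 3 cKO D4 arrays too, where it was at least 1.29-fold lower than on the cKO D3 arrays. Its limma adjusted p was 0.0129 in wild type and 0.0503 in cKO (not called), for the measured signals and not for these bounds. With Orc1 at these bounds the medians were -0.41 in cKO and -0.47 in wild type. Between the genotypes, limma called 0 of 33 on either day, where 1 at D4 and 4 at D3 had an unadjusted p of at most 0.05. On the adjusted p alone 1 passed at D3, Pold2, a subunit of the lagging strand polymerase (-0.48, adjusted p = 0.0256), and 2 passed over both days, Pold2 (-0.32, adjusted p = 0.0181) and Tipin, the partner of Timeless (0.40, adjusted p = 0.0289), named after their values were seen.

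Of 41 other mitotic genes tested, 10 were called lower at D4 in cKO and 25 in wild type, with medians of -0.59 in cKO and -0.69 in wild type. Among the called genes, the largest falls in cKO were those of Ect2, needed for cytokinesis (-0.96, adjusted p = 0.0199), Cenpn (-0.90, adjusted p = 0.0122) and Ndc80 (-0.76, adjusted p = 0.0359) of the kinetochore, and Smc2 of condensin (-0.78, adjusted p = 0.0419). In wild type they were those of Cdc25c, the phosphatase that activates Cdk1 (-0.98, adjusted p = 0.00227), Cep55 (-0.97, adjusted p = 0.00889), which acts in the last step of cell separation, Kif4 (-0.93, adjusted p = 0.00304) and Pttg1 (-0.88, adjusted p = 0.00405). Pttg1, which encodes securin, the guard of sister chromatid cohesion, was the only one of these 41 genes called between the genotypes. It was lower in cKO at D4 (-0.68, adjusted p = 0.0340) and at D3 (-0.89, adjusted p = 0.0109).

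Regulators of entry into the cycle were more mixed. Of 24 tested, 2 were called lower at D4 in cKO, E2f8 (-0.98, adjusted p = 0.0413), a repressor of the E2F family, and Mybl2 (-0.69, adjusted p = 0.0196), which encodes B-Myb. In wild type 6 were called lower, the largest falls being those of Cdk6 (-0.96, adjusted p = 0.00545), E2f8 (-0.92, adjusted p = 0.0227), Mybl2 (-0.90, adjusted p = 0.00165) and Rbl1 (-0.85, adjusted p = 0.00818). Rb1, which encodes the retinoblastoma protein that restrains E2F, was the 1 regulator called higher at D4 in both genotypes, in cKO (0.77, adjusted p = 0.0474) and in wild type (1.25, adjusted p = 0.00216). Averaged over the days, Ccnd2, the cyclin D2 gene, was higher in cKO (1.17, adjusted p = 0.00723).

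Of 7 genes of cyclin-dependent kinase inhibitors tested, 0 were called between the days in either genotype, with 0 of 7 at an unadjusted p of at most 0.05 in cKO and 1 of 7 in wild type. Between the genotypes 3 were called on each day. Cdkn1c had a log2 fold change of cKO over wild type of -2.83 at D4 and -2.79 at D3, Cdkn1b of -1.16 and -1.04, and Cdkn1a of 1.18 and 0.90, each in the same order. Of 11 p53 targets tested, Sesn1 was called higher at D4 in cKO (0.72, adjusted p = 0.0424) and in wild type (1.12, adjusted p = 0.00222), and Cdkn1a was the only one of the 11 called between the genotypes on either day.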

How the data were processed

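RNA from the 12 MEC 3D cultures was hybridised by the authors to Illumina Mouse WG-6 v2 BeadChips, and the deposited values are GenomeStudio probe intensities, neither background-subtracted nor normalized, each with a detection p-value against negative control beads. The authors' rank-invariant normalized intensities, also deposited, served as an alternative. Background correction used the detection p-values (limma neqc, offset 16), and intensities were then quantile-normalized and put on a log2 scale in R 4.3.3 with limma 3.58.1. Probes detected at p below 0.05 on at least 3 of 12 arrays were kept, 19972 of 45281. Of all probes, 34885 carried 1 gene symbol, 18 several and 10378 none. The brightest tested probe stood for each of 10724 genes.

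One limma model of 4 group means gave the contrasts, with Benjamini-Hochberg adjustment over all tested probes. A call needed both an adjusted p no higher than 0.05 and a change of 1.5-fold or more, and the difference of day changes the adjusted p alone. The model was tested on simulated data. With 3 arrays against 3, an exact permutation test cannot go below p = 0.1. The number of arrays limits the precision.

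The members and lists were chosen with earlier results of these data known. Values on every array were given for Pcna, Mcm2 and Cdk1 (Mki67 and Ccnb1 had no probe) and for the 3 S phase and 3 mitotic genes with the largest changes in each of the day and genotype comparisons. Genes of other lists were named with values only where called, at most 4 per list and comparison. Exceptions were Pold2 and Tipin, which passed the adjusted p alone, and Orc1 in cKO. Residuals of same-numbered cKO arrays of D4 and D3 correlated at r = 0.31, 0.35 and 0.36, each over 0.1. These numbers were thus taken to pair the cKO cultures, although no source states a pairing. The main fit left this pairing out, and only the fits with a replicate block used it. Alternatives covered background correction, the filter, the fold, the samples fitted, a replicate block, an unpaired t-test and each array left out. The paper's own array calls came from the Illumina error model in GenomeStudio, which was not rerun here. Its unpaired t-test is described for comparing wild type with cKO, not D4 with D3. The replicate block within each genotype and that over the D4 arrays alone were chosen after seeing the data.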

Additional observations from a re-analysis of the deposited data

Results flagged for a closer look

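Cdt1, which loads the MCM helicase, had a cKO minus wild type log2 difference of 0.10 at D4 and of -0.20 at D3, and the 3 cKO arrays all lay above the wild type mean at D4 and below it at D3. Gins2, a GINS subunit, had 0.13 at D4 and -0.14 at D3 in the same way. They are listed because the direction between the genotypes differed by day. The difference of the day changes was tested and was called for neither, with an adjusted p in limma of 0.72 for Cdt1 and 0.726 for Gins2.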

How the results depend on the processing

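The log2 fold change of D4 over D3 was negative for every gene tested in 22 of 23 settings in each genotype, the exception being the setting without a detection filter, which adds undetected genes. The count called lower at D4 in cKO was 14. It was 9 with the authors' processed values, 9 without the filter (43 genes) and 2 with only the arrays compared. It was 24 without the fold minimum and 0 by an unpaired t-test after adjustment. Leaving out 1 array gave 5 to 22. In wild type the count was 23, with 11 by the adjusted t-test and 18 to 27 with 1 array left out. Of the 14 cKO calls 1 held in every alternative other than the t-test, and of the 23 wild type calls 15 did. The cause of these changes was not tested.

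The S phase median of D4 over D3 in cKO was -0.54 without background correction and -0.70 to -0.53 with 1 array left out, and the difference of the day changes of the S phase genes was 0.0093 to 0.24 with 1 array left out. The same difference for the mitotic genes was -0.01 to 0.22, so its sign was not fixed. The medians of cKO over wild type at D4 were -0.14 to 0.04 for the S phase genes and -0.20 to 0.04 for the mitotic genes. Genes called lower in cKO than in wild type numbered 1 at D3 by the unadjusted t-test, 1 over both days without the fold minimum and 0 to 1 over both days with 1 array left out.

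With the replicate number as a block, 12 genes were called lower at D4 in cKO, 23 in wild type and 0 between the genotypes. The block ended the calls of Ube2c and Cdk1 in cKO (adjusted p = 0.0553 each) and of Ccne1 in wild type (adjusted p = 0.0525), and added Ccna2 in wild type (adjusted p = 0.0266). With separate blocks within each genotype, fitted over all arrays, the counts were 14 in cKO and 26 in wild type. In cKO, Ube2c (adjusted p = 0.0577) gave way to Ccne1 (adjusted p = 0.0215). Over the D4 arrays alone, with the number as the BeadChip, 0 genes were called. In wild type the residuals of same-numbered arrays correlated at r = 0.18, 0.13 and 0.08. A BeadChip block for every array and the t-test for the averaged and difference contrasts were not run. Signals near background limit what Ccna2, Chek1 and Ttk can show.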
